A study of Mus musculus with 15 samples.

Results

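The genes described here are 45 genes of the cell cycle, 18 that act in DNA replication or at entry into S phase and 27 that act in mitosis. They were listed by symbol, and each row with one of these symbols was taken from 3 tables of RNA-seq read counts of mouse distal colon. Of the 45 genes, 44 were in at least 1 table, among 12897 genes in all, and 43 were in all 3 tables, among 12370. The cyclin gene Ccne1 was in none of the tables. Ccne2 was not in the table with the treated B6 mice, so 16 replication genes and 27 mitotic genes could be followed through every group.

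The study compared B6 mice (C57BL/6, wild type) with mutants on this background that lack Irf1, a transcription factor of the interferon response. The 15 libraries fell into 5 groups of 3, numbered 1 to 3 in the labels and called mice here. The p-values below set a difference between groups against the spread between the libraries within them. The groups were 2 sets of untreated B6 mice (control set 1 and control set 2) and untreated Irf1-/- mice. The other groups were B6 and Irf1-/- mice collected at D26 of AOM/DSS treatment. Treated mice received azoxymethane (AOM), a carcinogen, at 7 mg/kg on D1 and dextran sodium sulfate (DSS), which injures the colonic epithelium, as 2% of the water they drank between D8 and D11. The mutation is in the germline, so it was not limited to a cell type, and the methods give an age for the longer tumour protocol, but the age and sex of the mice sequenced, and what separated the control sets, are not stated for these samples. Control set 2 was tabulated with the untreated mutants, control set 1 with the treated B6 mice, and each control was used in the comparison of its own table unless stated otherwise.

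Each library held 22266607 to 22869853 counted reads. Values below are CPM, the usual depth-scaled count, computed with edgeR's TMM factors. A gene of the list had 87 to 13766 reads in a library. Irf1 lay at 79.4 to 117 CPM in untreated mutants against 128 to 141 in control set 2, and at 99.97 to 123 in treated mutants against 173 to 227 in treated B6 mice. Reads of the gene thus remained in mutants, at a lower level in every comparison of a mutant with a B6 library of its stage. All 10 epithelial marker genes and all 8 smooth muscle marker genes listed were measured. In bulk tissue, fewer cycling cells and less RNA per cycling cell cannot be told apart.

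In a dividing cell, origins of replication are first licensed by loading the Mcm2-7 helicase, which Cdc6 and Cdt1 place on DNA. E2F transcription factors then switch on the genes of S phase, and polymerases with the Pcna clamp copy the genome from nucleotides that ribonucleotide reductase supplies. Mitotic genes are switched on later, largely through the MuvB complex with B-Myb and FoxM1, and their transcripts fall again after division. In the colon, dividing cells lie mainly in the lower part of the crypts, where stem and progenitor cells replace the surface epithelium every few days, and germinal centres of lymphoid follicles are another source.

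The promoters of these genes carry short motifs for that control. They were read from RefSeq (build GRCm38.p6, while the counts were made on mm9) as 250 bases before and 50 after each annotated start. A promoter was listed for 36 of the 45 genes. Searched on both strands were 3 motifs. The E2F site was taken as TTTGGCGC with its variants TTTCGCGC and also TTTCCCGC or else TTTGCCGC. The box bound by NF-Y was taken as CCAAT. The CHR element bound by MuvB complexes was taken as TTTGAA with its variants TTCGAA and also TTTAAA. E2F letters were in 43.8% of 16 promoters of replication genes and 8.70% of 23 promoters of mitotic genes, against 2.26% of all 32851 promoters. CHR letters were in 95.7% of mitotic and 37.5% of replication promoters, against 28.8% of all, and CCAAT in 87.0% and 68.8%, against 37.4% of all. No E2F and CHR letters overlapped in these genes, an E2F site of Mcm7 overlapped a CCAAT box, and TTTAAA, which reads the same on both strands, was counted once.

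Shown next are the promoters of the 3 genes of each kind with the smallest p in a response to treatment that hold the motif of their kind. For the replication genes Mcm7, Mcm3 and Mcm5, helicase subunits, capitals mark E2F letters, and in Mcm5 a pair of overlapping sites on opposite strands forms the run. Those of Mcm3 lie after the start, so only a stretch of 30 bases around them is given.
Mcm7, chr5:138171884-138172133, minus strand: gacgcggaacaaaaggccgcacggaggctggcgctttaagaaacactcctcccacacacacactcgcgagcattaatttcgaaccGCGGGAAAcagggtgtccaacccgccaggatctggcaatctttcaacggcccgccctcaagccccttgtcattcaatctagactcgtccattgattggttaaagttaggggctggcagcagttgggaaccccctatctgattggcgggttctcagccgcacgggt
Mcm3, chr1:20820265-20820294, minus strand: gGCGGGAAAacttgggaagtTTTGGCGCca
Mcm5, chr8:75109259-75109508, plus strand: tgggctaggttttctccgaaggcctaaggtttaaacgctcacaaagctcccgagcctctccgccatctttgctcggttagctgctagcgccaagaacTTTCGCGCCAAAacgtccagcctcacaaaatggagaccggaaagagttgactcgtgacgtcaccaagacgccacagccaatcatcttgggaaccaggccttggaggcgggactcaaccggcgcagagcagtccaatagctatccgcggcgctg
For the mitotic genes Prc1, Plk1 and Birc5, capitals mark CHR letters and CCAAT boxes. The stretch of Prc1 ends at the later of its annotated starts.
Prc1, chr7:80294226-80294475, plus strand: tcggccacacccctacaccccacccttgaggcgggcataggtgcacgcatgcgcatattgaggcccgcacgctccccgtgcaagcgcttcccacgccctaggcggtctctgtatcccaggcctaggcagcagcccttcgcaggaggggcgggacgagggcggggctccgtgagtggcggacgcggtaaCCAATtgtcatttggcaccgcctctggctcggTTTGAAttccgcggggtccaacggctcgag
Plk1, chr7:122159185-122159434, plus strand: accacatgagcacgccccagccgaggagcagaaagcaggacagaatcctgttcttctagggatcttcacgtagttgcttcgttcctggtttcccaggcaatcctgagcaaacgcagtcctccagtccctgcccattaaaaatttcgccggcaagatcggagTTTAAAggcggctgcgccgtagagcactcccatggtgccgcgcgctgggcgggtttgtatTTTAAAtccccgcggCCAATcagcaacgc
Birc5, chr11:117848987-117849236, plus strand: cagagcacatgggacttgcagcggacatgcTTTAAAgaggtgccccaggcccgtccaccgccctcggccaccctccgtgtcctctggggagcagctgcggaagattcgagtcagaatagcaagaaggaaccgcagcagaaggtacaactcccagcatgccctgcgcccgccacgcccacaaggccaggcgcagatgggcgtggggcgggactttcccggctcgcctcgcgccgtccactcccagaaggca
The CHR letters of Prc1 and the nearer of the 2 shown for Plk1 begin 30 and 29 bases before the start. Both have a CCAAT box close by, while the CHR letters of Birc5 begin 220 bases before the start with none. A further CHR match of Plk1 and a further E2F match of Mcm7 lie after the start, outside the stretches shown. A match is only a match of letters, and the factors were not measured.

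**Figure D1:**
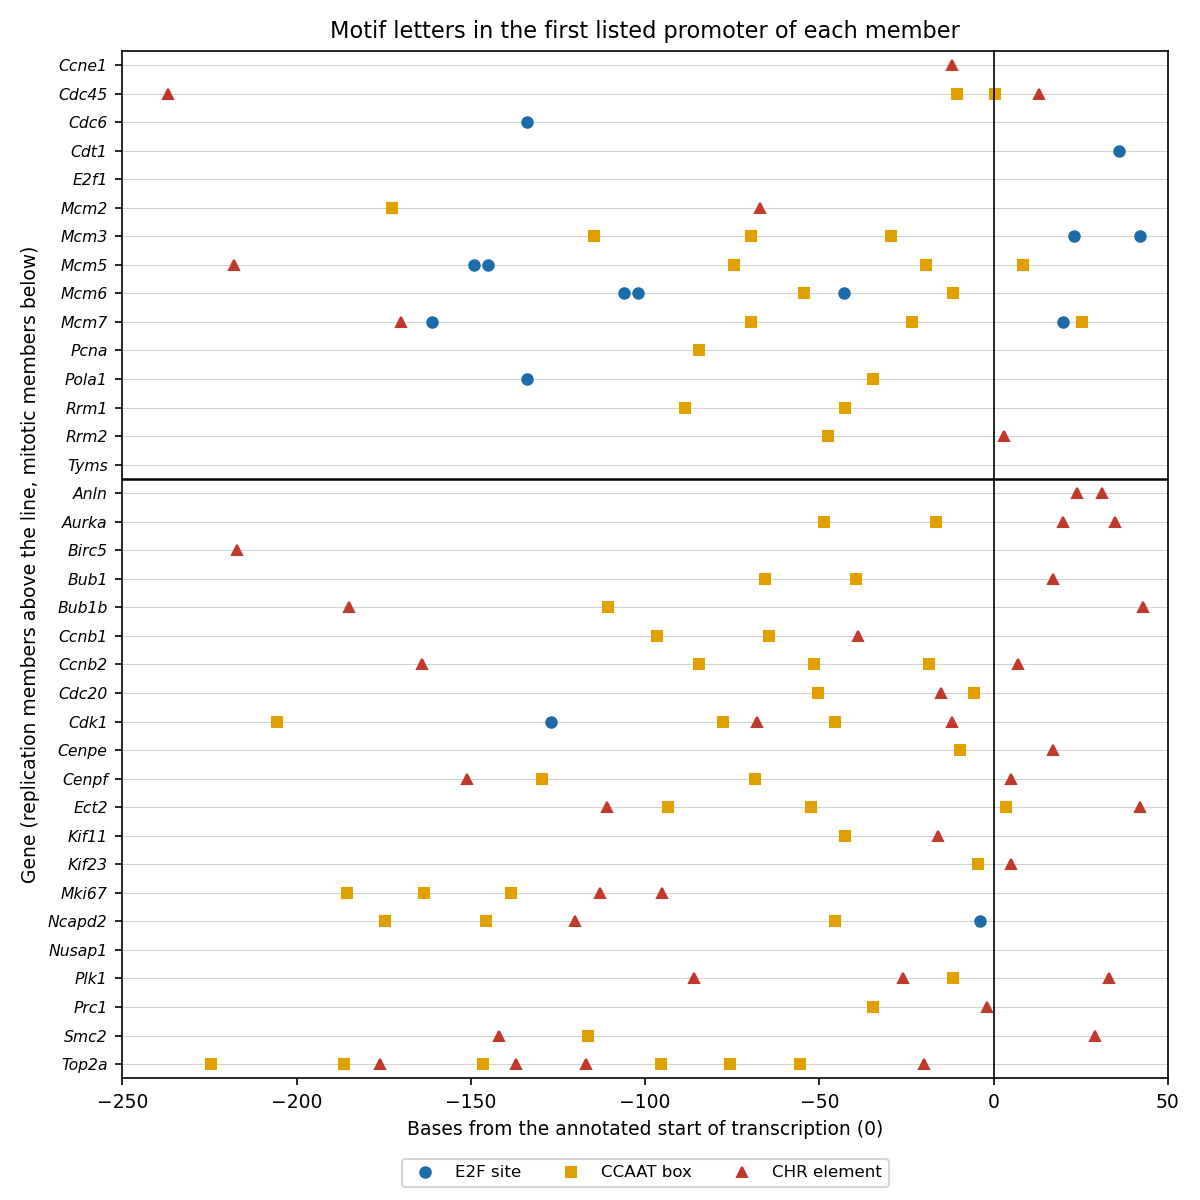
Positions of motif letters (x axis, bases from the annotated start) in the first RefSeq promoter of 36 genes (y axis), with E2F sites as circles, CCAAT boxes as squares and CHR elements as triangles. E2F letters lie mostly in the upper block of replication genes, and CHR letters are in all mitotic genes shown except Nusap1.

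Per length of transcript, the genes differed widely in level. Averaged over the 15 libraries, Tyms (thymidylate synthase) stood at 169.8 CPM per kb, Pcna at 45.3, Top2a at 30.8, Plk1 at 26.1 and Mki67 at 24.5, while Pole stood at 2.30 and Cdc6 at 1.24. The median was 8.20 CPM per kb for the 43 genes and 11.2 for all genes with a known length. Reads of Tyms may be shared with a processed copy, Tyms-ps, so its level is uncertain.

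No gene of the list reached the study's threshold (fold change, FC, of at least 1.5 and Benjamini-Hochberg adjusted p under 0.01 in the quasi-likelihood test of edgeR) in any comparison. The share of all tested genes that did was 0.405% between the untreated genotypes, 0.0475% in the B6 response, 0.252% in the Irf1-/- response, 0.0160% for the difference between these responses, 0.385% between the treated genotypes and 0.0644% between the control sets. By DESeq2 these shares were higher, at 0.850%, 3.49%, 1.74%, 0.601%, 2.16% and 1.16% in the same order. By edgeR's exact test, which was not run for the difference between responses, they were 0.993%, 3.64%, 1.96%, 2.14% and 1.30%. For the untreated genotypes and the 2 responses, the study itself reported many more called genes than quasi-likelihood gave here. Its numbers lay closest to those of the exact test. DESeq2 and the exact test both called E2f1 in the Irf1-/- response. Both also called listed genes between the control sets, as given with those comparisons. Smaller shifts were therefore counted at an unadjusted p under 0.05, a level that many genes of these libraries pass.

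The libraries of one group were not alike in these genes, and they moved as a block. The level of each list in a library was taken as the mean of its genes' log2 CPM, relative to the mean of the 15 libraries. For mitotic genes it was 0.03, -0.52 and -0.29 in the 3 mice of control set 1 and 0.00, 0.33 and 0.44 in those of control set 2. It was -0.77, 0.21 and 0.06 in treated B6 mice, 0.27, 0.08 and -0.06 in untreated mutants and 0.44, 0.08 and -0.29 in treated mutants. Treated B6 mouse 1 was thus the lowest of all 15 libraries, and every group overlapped every other.

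For replication genes the level was -0.13, -0.23 and -0.10 in control set 1, 0.03, 0.43 and 0.19 in control set 2, and -0.29, 0.38 and -0.12 in treated B6 mice. It was -0.02, -0.10 and 0.06 in untreated mutants and 0.16, -0.07 and -0.18 in treated mutants. Here control sets 1 and 2 did not overlap, and treated B6 mice 1 and 2 lay at opposite ends. Mitotic minus replication level ranged from -0.48 in treated B6 mouse 1 to 0.29 in untreated mutant 1, so the lists did not move in step in every colon.

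**Figure D2:**
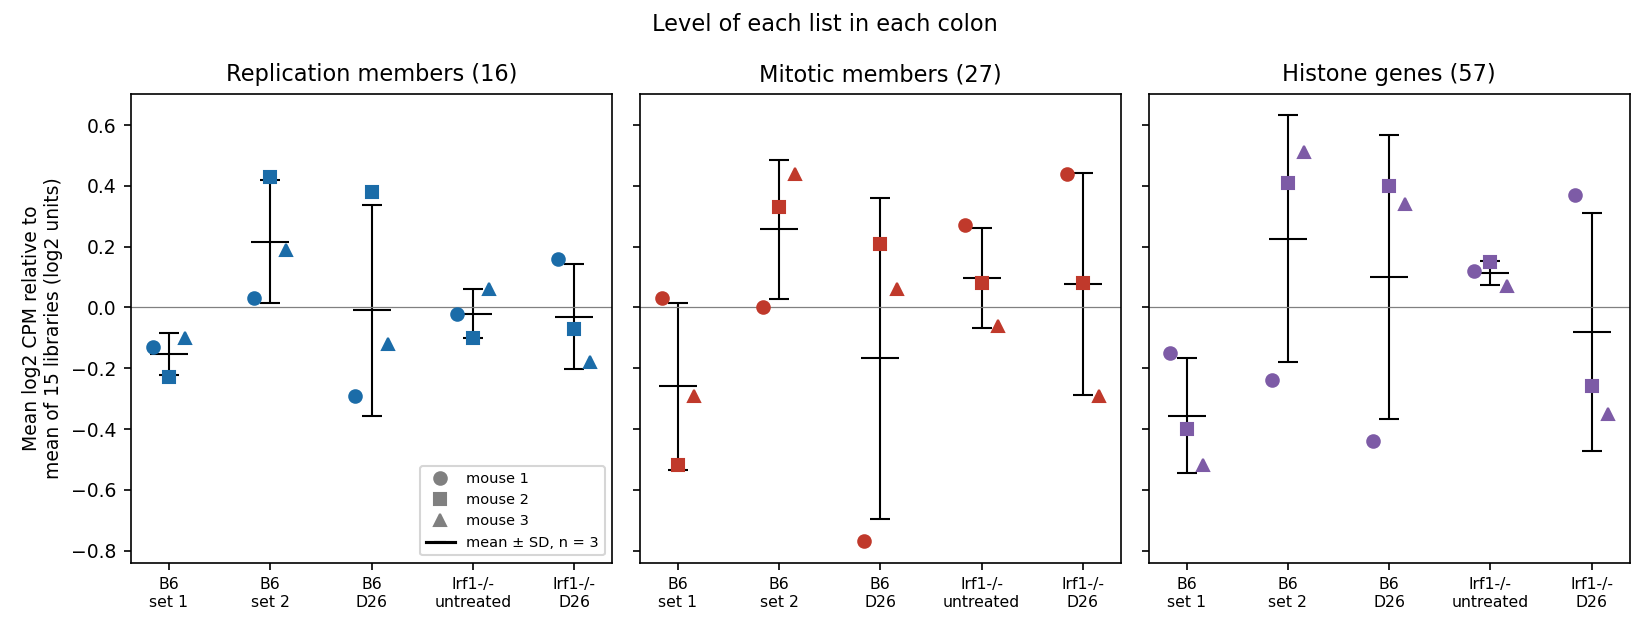
Level of 16 replication genes, 27 mitotic genes and 57 histone genes in each colon (y axis, mean log2 CPM relative to the mean of 15 libraries), by group (x axis), with points for mice and bars for mean ± SD. Control set 2 lies above control set 1 for replication genes, and treated B6 mouse 1 lies lowest for mitotic genes at -0.77.

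Of the 27 mitotic genes, 27 were highest in mouse 1 of control set 1 within that group, and 24 were lowest in its mouse 2. In treated B6 mice, 27 of 27 were lowest in mouse 1 and 19 highest in mouse 2, and 16 of 16 replication genes were highest in mouse 2. In treated mutants, 25 mitotic and 15 replication genes were highest in mouse 1, and 26 and 11 were lowest in mouse 3. The median SD between mice of a group was 0.56 on the log2 scale for mitotic genes and 0.38 for replication genes in treated B6 mice, against 0.13 for all genes. In untreated mutants these were 0.19, 0.12 and 0.08. In control set 2 they were 0.24, 0.23 and 0.11, in control set 1 0.26, 0.13 and 0.11, and in treated mutants 0.39, 0.19 and 0.13. The median spread of both lists exceeded that of all genes in every group and was widest in treated B6 mice.

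**Figure D3:**
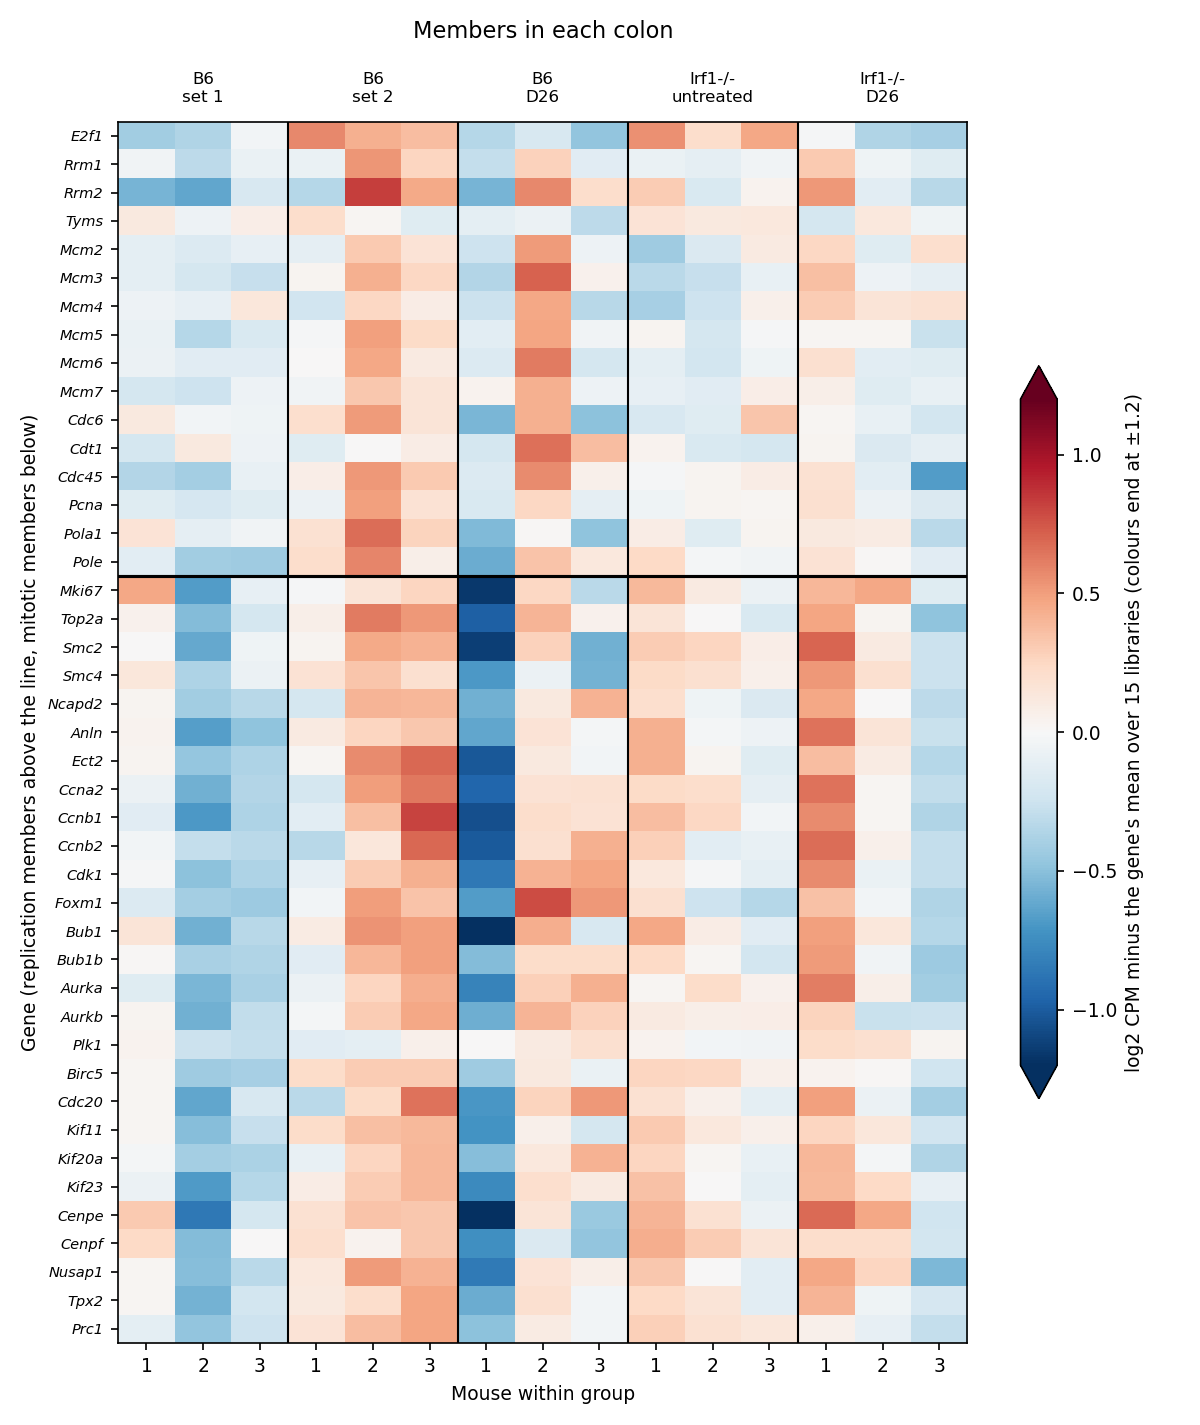
Each gene (rows, replication genes above the line) in each colon (columns, mouse number within group), coloured by log2 CPM minus the gene's mean over 15 libraries. Treated B6 mouse 1 is low through most of the mitotic block, and control set 1 is mostly below control set 2.

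The widest difference was between the 2 untreated B6 sets. At an unadjusted p under 0.05, 33 of 43 genes were higher in control set 2, 21 mitotic and 12 replication genes, and none was lower, where 17.2% of all genes passed in either direction. The median log2 FC was 0.52 for mitotic genes (27 of 27 positive) and 0.38 for replication genes (15 of 16 positive), against 0.00 for all genes. In 23 of 43 genes, all mice of set 2 lay above all mice of set 1, against 10.4% of all genes. Only Prc1 had an adjusted p under 0.05, as did 0.572% of all genes. By DESeq2 9 genes and by edgeR's exact test 7 genes passed the study's threshold, all higher in set 2, which quasi-likelihood did not call.

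In B6 mice, treatment was compared with control set 1. At an unadjusted p under 0.05, 4 genes passed, all higher at D26 (Mcm7, Cdc45, Rrm2 and Plk1), a share of the 43 below the 29.5% of all genes. The median log2 FC was 0.25 for replication and 0.21 for mitotic genes, with 33 of 43 positive. Without treated mouse 1, 25 of 43 passed, all higher, against 31.8% of all genes, and the medians were 0.39 and 0.42. Measured against control set 2, the direction turned. Then 10 genes passed, all lower at D26, against 33.5% of all genes, and the medians were -0.15 for replication and -0.37 for mitotic genes. With both sets pooled they were 0.04 and -0.14. Single mice of the set 1 comparison also moved it. Without treated mouse 2, no gene was higher and 7 were lower, against 28.2% of all genes, and the medians were 0.01 and 0.05. Without mouse 2 of control set 1, none was higher and 3 were lower, against 26.3% of all genes. The direction in treated B6 colons was thus not settled by these libraries.

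In Irf1-/- mice, which had 1 control set, the medians were -0.01 for replication and 0.04 for mitotic genes, and 24 of 44 genes were positive. These too rested on single mice. Without treated mutant 1 the mitotic median was -0.21 and 5 of 44 genes were positive, and without treated mutant 3 it was 0.22 and 35 of 44 were positive. At an unadjusted p under 0.05, 1 gene was higher and 6 lower in the former, against 19.5% of all genes, and 5 higher and 2 lower in the latter, against 21.0%. With all mice, 5 genes passed, Mcm4 and Plk1 higher and E2f1, Prc1 and Birc5 lower, against 18.6% of all genes. For the difference between the genotypes' responses (Irf1-/- minus B6), 3 of 43 genes passed, E2f1, Prc1 and Cdc45, all negative, against 16.9% of all genes. The medians were -0.16 and -0.14, and with control set 2 they were 0.22 and 0.41.

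Between untreated genotypes, 7 of 44 genes passed an unadjusted p under 0.05, all lower in mutants than in control set 2, against 10.4% of all genes. They were Mcm3, Pola1, Mcm6, Rrm1 and Mcm5 of replication and Top2a and Foxm1 of mitosis. The medians were -0.28 and -0.18, and 39 of 44 log2 FC were negative. Without mouse 1 of control set 2, 27 genes were lower and 1 higher, against 15.1% of all genes, and without its mouse 2, 4 were lower, against 10.4%. Against control set 1, 20 of 43 genes passed, all higher in mutants, against 20.4% of all genes, and the medians were 0.07 and 0.34. The untreated mutants thus lay between the B6 sets in mitotic genes.

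Between treated genotypes, 3 of 43 genes passed, Cenpf, Smc4 and Cenpe, all mitotic and all higher in mutants, against 22.0% of all genes. The median log2 FC was 0.19 for mitotic and -0.01 for replication genes, and without treated B6 mouse 1 it was -0.03 and -0.19. Cell type markers moved in these comparisons as well. Between treated genotypes 6 of 10 epithelial markers were lower and none higher in mutants (median -0.26), against 22.0% of all genes. Of B cell and germinal centre markers 3 of 6 were higher and none lower (median 0.29). Crypt stem and progenitor markers had 2 of 10 lower and none higher (median -0.11). Leukocyte markers had 1 of 10 higher and none lower (median 0.00). These marker values carry no GC correction, and treated B6 libraries differed from the others in GC slope, as given below. In untreated mutants against set 2, 5 of 6 B cell and germinal centre markers were higher and 1 lower (median 1.15), against 10.4% of all genes. Of leukocyte markers 5 of 9 were higher and none lower (median 0.39), and of crypt markers 4 of 10 were lower and none higher (median -0.12). Set 2 itself lay below set 1 in B cell and leukocyte markers, with medians of -1.15 and -0.52. The mean B cell level of untreated mutants, 0.03, 0.26 and 0.41, lay within that of control set 1, 0.88, 0.19 and -1.06. The part of these cell types in the values of the cell cycle genes was not tested.

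**Figure D4:**
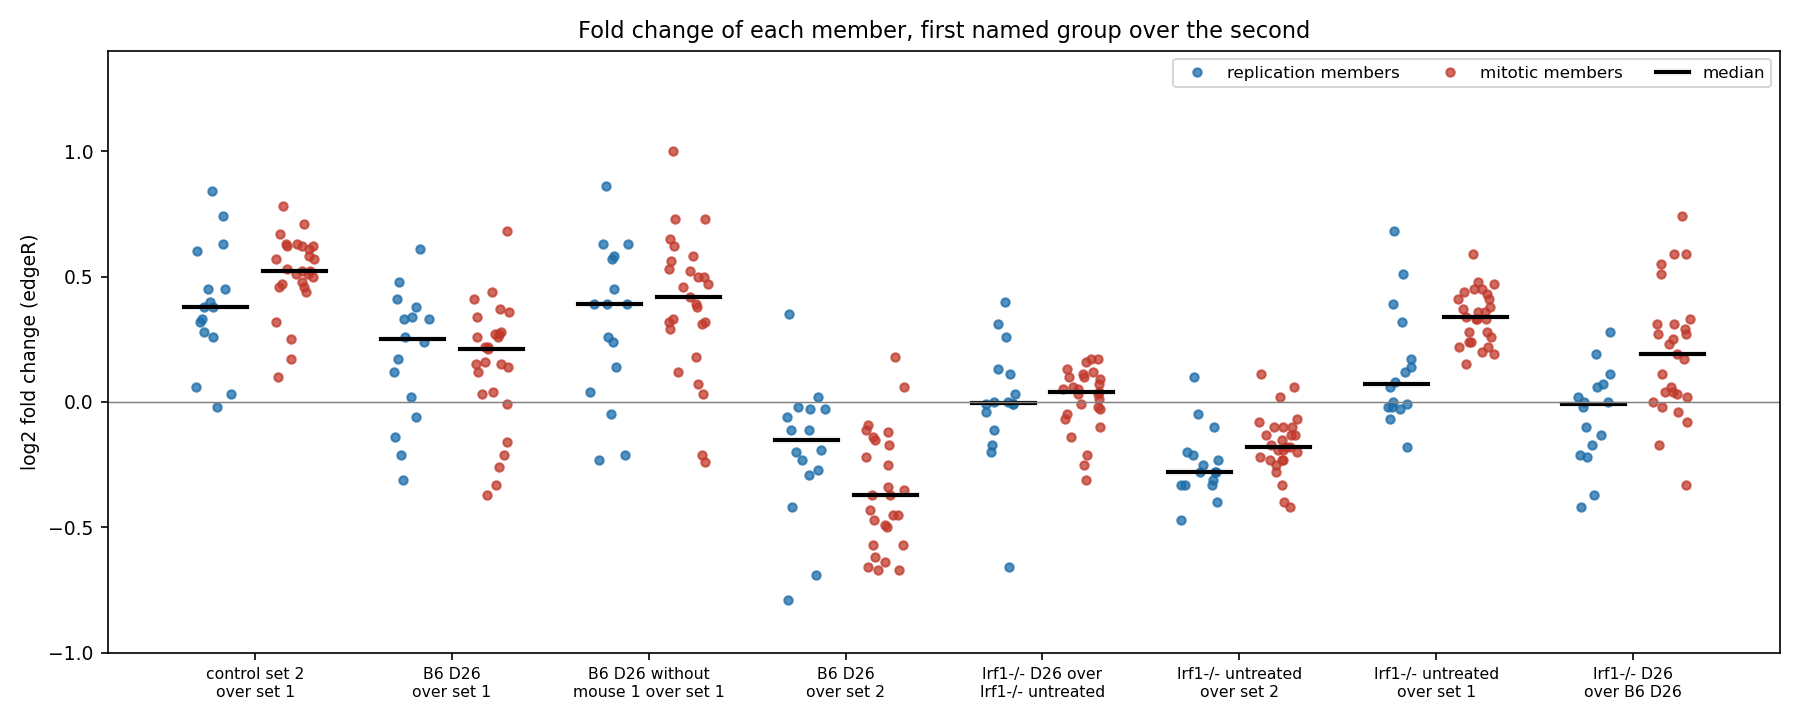
Log2 FC (y axis) of each gene in 8 comparisons (x axis), replication genes in blue and mitotic genes in red, with black bars for medians. The medians of B6 mice at D26 are 0.25 and 0.21 over control set 1 and -0.15 and -0.37 over control set 2.

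Genes that license origins and unwind DNA were taken first. Mcm3, a helicase subunit, had 22.3, 21.0 and 20.1 CPM in control set 1, 24.8, 32.7 and 28.9 in control set 2, 19.0, 39.7 and 25.1 in treated B6 mice, 19.5, 19.9 and 22.9 in untreated mutants and 31.3, 23.3 and 22.5 in treated mutants. Control set 2 lay wholly above control set 1 and the untreated mutants, and treated B6 mice spanned the whole range. Its log2 FC was -0.47 ± 0.11 (SE) in untreated mutants against set 2 (adjusted p = 0.108) and -0.03 against set 1 (adjusted p = 0.917). In the Irf1-/- response it was 0.31 ± 0.14 (adjusted p = 0.276).

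Mcm2, another subunit, had 21.1, 20.5 and 21.4 CPM in control set 1, 21.3, 28.5 and 25.7 in control set 2, 19.3, 32.6 and 22.1 in treated B6 mice, 17.1, 20.4 and 24.8 in untreated mutants and 27.4, 20.7 and 26.5 in treated mutants. Mcm5 had 36.0, 30.1 and 33.7 CPM in control set 1, 38.0, 53.7 and 44.9 in control set 2, 35.0, 52.9 and 37.2 in treated B6 mice, 39.0, 33.1 and 38.0 in untreated mutants and 38.8, 38.7 and 31.5 in treated mutants. In both genes treated B6 mouse 2 stood far above its group, and Mcm5 of set 2 lay above set 1 in every mouse.

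Mcm7 averaged 36.8 ± 2.63 CPM (SD) in control set 1, 45.9 ± 5.84 in set 2 and 46.0 ± 8.62 in treated B6 mice, with a log2 FC of 0.33 ± 0.13 over set 1 (adjusted p = 0.128) and 0.02 over set 2. Its difference between responses was -0.33 ± 0.17 (adjusted p = 0.341), and its value between treated genotypes was -0.22 ± 0.13 (adjusted p = 0.353). Mcm4 was the replication gene with the second smallest p in the Irf1-/- response, with 19.7, 22.0 and 27.3 CPM before and 32.2, 29.0 and 29.5 CPM at D26. These mice did not overlap, at a log2 FC of 0.40 ± 0.12 (adjusted p = 0.124), and the difference from the B6 response was 0.38 ± 0.26. Mcm6 had a log2 FC of -0.33 ± 0.11 in untreated mutants against set 2 (adjusted p = 0.275) and -0.01 against set 1.

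Cdc6, a licensing factor, had 6.12, 5.51 and 5.41 CPM in control set 1, 6.46, 8.04 and 6.25 in control set 2, 3.82, 7.62 and 3.98 in treated B6 mice, 4.93, 5.07 and 7.10 in untreated mutants and 5.69, 5.29 and 4.82 in treated mutants. Treated B6 mice held both the lowest and nearly the highest value, and the smallest adjusted p of any comparison was 0.403. Cdt1, its partner, averaged 13.2 ± 3.85 CPM in treated B6 mice and 9.94 ± 0.733 in treated mutants, a log2 FC of -0.42 ± 0.21 (adjusted p = 0.276). Cdc45, which activates the helicase, had a log2 FC of 0.48 ± 0.21 in the B6 response (adjusted p = 0.162) and -0.20 ± 0.20 in the Irf1-/- response, a difference of -0.68 ± 0.31 (adjusted p = 0.285). With control set 2 that difference was -0.08.

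Of the copying machinery, Pcna, the sliding clamp, had 61.3, 59.3 and 61.3 CPM in control set 1, 64.9, 95.3 and 76.4 in control set 2, 60.0, 80.8 and 63.3 in treated B6 mice, 66.0, 69.4 and 69.2 in untreated mutants and 78.0, 64.7 and 60.7 in treated mutants. Control set 1 was narrow and lay below every mouse of set 2 (log2 FC 0.38 ± 0.12, adjusted p = 0.141). Pola1, a subunit of the polymerase that starts new strands, averaged 31.9 ± 3.08 CPM in control set 1, 41.5 ± 7.71 in set 2, 25.5 ± 5.60 in treated B6 mice, 31.5 ± 2.61 in untreated mutants and 31.3 ± 5.14 in treated mutants. It was the replication gene with the most negative B6 response over set 1, at a log2 FC of -0.31 ± 0.15 (adjusted p = 0.202) and -0.69 ± 0.17 over set 2 (adjusted p = 0.0295). In untreated mutants against set 2 it was -0.40 ± 0.12 (adjusted p = 0.240), with no overlap, and between treated genotypes 0.28 ± 0.17 (adjusted p = 0.372). Pole, of the leading strand polymerase, had a log2 FC of 0.63 ± 0.15 between the control sets (adjusted p = 0.0815).

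Of nucleotide supply, Rrm2, the regulated subunit of ribonucleotide reductase, had 8.28, 7.93 and 10.7 CPM in control set 1, 9.64, 21.8 and 16.7 in control set 2, 8.26, 18.3 and 14.2 in treated B6 mice, 15.02, 10.8 and 12.5 in untreated mutants and 17.5, 11.2 and 9.68 in treated mutants. Its log2 FC of 0.84 ± 0.25 between the control sets (adjusted p = 0.131) was the highest of the list there, and the sets still overlapped by 1 mouse. In the B6 response it was 0.61 ± 0.27 over set 1 and -0.23 over set 2. Rrm1, the large subunit, ranged from 47.4 to 85.0 CPM. Tyms, at 431 to 617 CPM, was the 1 gene of the list with a negative log2 FC between the control sets (-0.02 ± 0.10), and every treated B6 mouse lay below every mouse of set 1 (-0.21 ± 0.10, adjusted p = 0.188).

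At the G1/S switch, E2f1 encodes the E2F factor that activates S phase genes. It had 6.52, 6.78 and 8.56 CPM in control set 1, 13.2, 11.8 and 11.4 in control set 2, 6.90, 7.66 and 6.30 in treated B6 mice, 12.8, 10.1 and 12.05 in untreated mutants and 8.69, 6.80 and 6.60 in treated mutants. Each library of control set 2 and of the untreated mutants lay above each library of the other groups, a split that puts control set 1 with the treated mice. The log2 FC was -0.66 ± 0.16 in the Irf1-/- response (adjusted p = 0.0668), where DESeq2 gave an adjusted p of 0.00797 and edgeR's exact test 0.00455, both past the threshold.

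In the B6 response E2f1 had a log2 FC of -0.06 ± 0.17 over control set 1 and -0.79 ± 0.14 over control set 2 (adjusted p = 0.0144). The difference between the genotypes' responses was -0.60 ± 0.23 (adjusted p = 0.213) with set 1 and 0.14 with set 2. Between the control sets it was 0.74 ± 0.15 (adjusted p = 0.0601). Ccne2, a cyclin of the same step, averaged 5.19 ± 0.237 CPM in control set 2, 5.28 ± 0.609 in untreated mutants and 4.75 ± 0.772 in treated mutants, which differed by less than the spread between mice.

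Of the mitotic cyclins and their partners, Cdk1, the kinase that drives mitosis, had 25.2, 17.97 and 19.6 CPM in control set 1, 23.6, 31.2 and 34.1 in control set 2, 13.9, 33.8 and 35.1 in treated B6 mice, 27.8, 25.1 and 23.3 in untreated mutants and 37.7, 24.0 and 20.7 in treated mutants. Ccnb1, its cyclin, had 22.0, 15.02 and 18.7 CPM in control set 1, 22.2, 31.2 and 42.5 in control set 2, 11.6, 28.0 and 27.3 in treated B6 mice, 31.4, 28.9 and 23.7 in untreated mutants and 36.1, 24.6 and 18.9 in treated mutants. Both genes followed the same mice, low in treated B6 mouse 1 and high in treated mutant 1. The log2 FC of Ccnb1 was 0.78 ± 0.21 between the control sets (adjusted p = 0.104), 0.27 ± 0.30 in the B6 response and -0.07 ± 0.21 in the Irf1-/- response.

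Foxm1, a transcription factor for mitotic genes, had 9.38, 7.88 and 7.72 CPM in control set 1, 10.3, 14.9 and 13.3 in control set 2, 6.59, 18.1 and 15.05 in treated B6 mice, 11.999, 8.81 and 8.30 in untreated mutants and 13.4, 10.3 and 8.16 in treated mutants. In treated B6 mice, 1 mouse lay below and 2 above all of control set 1, and the log2 FC of 0.68 ± 0.31 (adjusted p = 0.187) was the highest of the list in that response. Over set 2 it was 0.06, and in untreated mutants against set 2 it was -0.40 ± 0.18 (adjusted p = 0.472). Ccna2 and Ccnb2, the other cyclins, had log2 FC of 0.67 ± 0.20 and 0.44 ± 0.21 between the control sets and 0.06 to 0.22 in both responses.

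Of mitotic kinases and the checkpoint, Plk1, a kinase of spindle assembly, had 58.9, 47.7 and 46.6 CPM in control set 1, 51.7, 52.5 and 59.6 in control set 2, 57.3, 61.6 and 65.3 in treated B6 mice, 58.6, 55.9 and 55.7 in untreated mutants and 66.6, 65.1 and 58.5 in treated mutants. It was the mitotic gene with the smallest p in the B6 response (log2 FC 0.27 ± 0.11, adjusted p = 0.129), and its value in the Irf1-/- response was 0.16 ± 0.07 (adjusted p = 0.251). Unlike most of the list, it was not low in treated B6 mouse 1 relative to the controls, and it stayed positive over control set 2, at 0.18 (adjusted p = 0.188). After a correction of each library for GC content its B6 response was 0.12 ± 0.10.

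Birc5 (survivin), of the chromosomal passenger complex, had 29.4, 21.4 and 21.9 CPM in control set 1, 33.7, 35.5 and 35.5 in control set 2, 21.5, 31.3 and 27.3 in treated B6 mice, 34.7, 34.4 and 30.1 in untreated mutants and 29.7, 29.1 and 24.5 in treated mutants. Untreated and treated mutants did not overlap (log2 FC -0.25 ± 0.10, adjusted p = 0.228), nor did the control sets (0.53 ± 0.12, adjusted p = 0.0782). The difference between responses was -0.40 ± 0.21 (adjusted p = 0.360), and 0.13 with control set 2. Aurkb, the kinase of the same complex, had a difference between responses of -0.50 ± 0.33 (adjusted p = 0.464), and 0.02 with control set 2. Aurka, Bub1, Bub1b and Cdc20 (spindle kinase, checkpoint kinases and the activator of anaphase) had log2 FC of 0.48 to 0.62 between the control sets and of 0.04 to 0.44 in the B6 response.

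Of the spindle and kinetochore, Prc1, which bundles microtubules of the midzone, had 50.4, 39.6 and 46.0 CPM in control set 1, 61.3, 71.1 and 76.2 in control set 2, 39.0, 58.7 and 53.6 in treated B6 mice, 67.2, 62.2 and 60.7 in untreated mutants and 57.4, 51.1 and 44.7 in treated mutants. Every mouse of set 2 and every untreated mutant lay above every other mouse, as for E2f1. Prc1 had the smallest p of the list between the control sets (log2 FC 0.62 ± 0.11, adjusted p = 0.0371). Its Irf1-/- response was -0.31 ± 0.09 (adjusted p = 0.124), its B6 response 0.16 ± 0.15 over set 1 and -0.45 ± 0.15 over set 2, and the difference -0.46 ± 0.20 (adjusted p = 0.252) or, with set 2, 0.15.

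Cenpf, a kinetochore protein, had 88.5, 52.2 and 74.6 CPM in control set 1, 85.7, 76.9 and 93.1 in control set 2, 44.8, 66.5 and 54.0 in treated B6 mice, 101, 91.8 and 83.0 in untreated mutants and 86.4, 86.6 and 64.3 in treated mutants. Its log2 FC was 0.51 ± 0.16 in treated mutants over treated B6 mice (adjusted p = 0.123) and -0.37 ± 0.20 in the B6 response (adjusted p = 0.237). Cenpe, the kinetochore motor, had 0.74 ± 0.32 between treated genotypes (adjusted p = 0.223), the highest of the list. The motor Kif11 had a log2 FC of 0.57 ± 0.12 between the control sets (adjusted p = 0.0628), with no overlap of the mice. Kif20a, Kif23, Nusap1 and Tpx2, motors and spindle proteins, had 0.47 to 0.62 there, and Nusap1 had -0.28 ± 0.13 in untreated mutants against set 2 (adjusted p = 0.501).

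Of chromosome structure, Mki67, the source of the Ki-67 proliferation stain, had 325, 149 and 220.1 CPM in control set 1, 236, 263 and 283 in control set 2, 106, 280.5 and 189 in treated B6 mice, 310.2, 255 and 226 in untreated mutants and 313, 326 and 214 in treated mutants. All groups overlapped. Its log2 FC was -0.26 ± 0.35 in the B6 response (adjusted p = 0.645), 0.11 ± 0.17 in the Irf1-/- response (adjusted p = 0.785) and 0.55 ± 0.30 in treated mutants over treated B6 mice (adjusted p = 0.316).

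Top2a, the topoisomerase that untangles chromosomes, had 161, 108 and 133 CPM in control set 1, 162, 237 and 221 in control set 2, 78.5, 206 and 159.8 in treated B6 mice, 171, 155 and 137 in untreated mutants and 215, 158 and 111 in treated mutants. It had the smallest p of the mitotic genes in untreated mutants against set 2 (log2 FC -0.42 ± 0.13, adjusted p = 0.244) and was at 0.20 against set 1. Smc4, a condensin subunit, averaged 95.4 ± 25.0 CPM in treated mutants and 62.8 ± 15.05 in treated B6 mice (log2 FC 0.59 ± 0.21, adjusted p = 0.155). Smc2, its partner, had 0.59 ± 0.34 there, and Ncapd2, of the same complex, 0.02 ± 0.26. Of cytokinesis, Anln and Ect2 had 0.57 ± 0.16 and 0.71 ± 0.17 between the control sets and 0.22 ± 0.23 and 0.03 ± 0.26 in the B6 response.

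In treated B6 mice the values of these genes moved with the GC content of their transcripts. Across the 43 genes, Spearman's rho between GC content and log2 FC was 0.628 in the B6 response, 0.103 in the Irf1-/- response and -0.729 between treated genotypes. For the 27 mitotic genes it was 0.788, 0.278 and -0.787. Across all genes of known GC content it was 0.620, 0.145 and -0.601, so the listed genes shared a slope that the libraries as a whole had. Per 10% of GC, the slope of a library's log2 CPM over all genes was 0.14 to 0.29 in treated B6 mice and -0.13 to 0.03 in the other 12. Genes share these libraries and are not replicates, so these values only describe them. The median GC content was 49.3% for replication and 46.3% for mitotic genes, against 50.0% for all genes.

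Genes below the list's median GC content of 47.4% had a median log2 FC of 0.12 in the B6 response, and those at or above it 0.33. Between treated genotypes they had 0.27 and 0.00. With a correction of every library for GC content, the log2 FC between treated genotypes was 0.34 ± 0.15 for Cenpf (adjusted p = 0.410), 0.30 ± 0.18 for Smc4 (adjusted p = 0.554) and 0.56 ± 0.31 for Cenpe (adjusted p = 0.521), and 1 gene in place of 3 passed an unadjusted p under 0.05, against 12.1% of all genes. The medians of the B6 response were then 0.25 for replication and 0.27 for mitotic genes, and those between the control sets, 0.37 and 0.53, moved by 0.01.

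**Figure D5:**
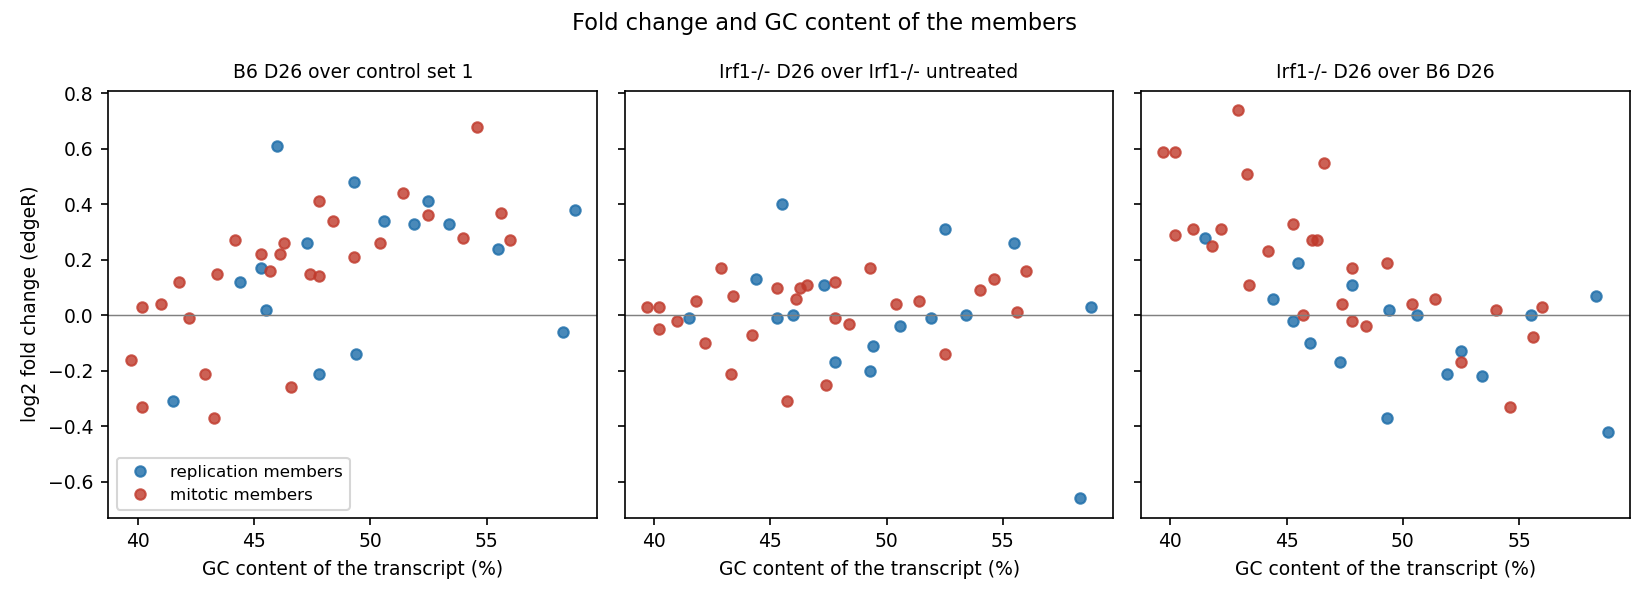
Log2 FC (y axis) against GC content of the transcript in percent (x axis) for 43 genes, replication genes in blue and mitotic genes in red, in 3 comparisons. Points slope upward in the B6 response, downward between treated genotypes, and lie near 0 in the Irf1-/- response, where E2f1 stands apart at -0.66.

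Other genes of the pathway, grouped by function but chosen with earlier results of these data known, were read the same way. None reached the study's threshold. Of 52 further mitotic genes measured, 38 were higher and 1 lower in control set 2 than in set 1 at an unadjusted p under 0.05 (median log2 FC 0.50), where 17.2% of all genes passed, led by the kinetochore gene Spc25 (0.74 ± 0.16, adjusted p = 0.0628) and the lamin gene Lmnb1 (0.57 ± 0.12, adjusted p = 0.0677). Of 42 further replication genes, 16 were higher and none lower there (median 0.23), led by Uhrf1, which carries DNA methylation through replication, at 0.65 ± 0.16 (adjusted p = 0.0901). In the B6 response these lists had 3 and 6 genes higher and 1 and 3 lower, where 29.5% of all genes passed, and medians of 0.09 and 0.11. Over control set 2 the direction turned, with 1 and 0 higher and 18 and 7 lower, against 33.5% of all genes. Their medians were then -0.32 and -0.11. In the Irf1-/- response they had 0 and 2 higher, 2 and 4 lower, where 18.6% of all genes passed, and medians of -0.03 and -0.01.

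Replication-dependent histone genes, which are transcribed in S phase, could be read because ribosomal RNA was depleted rather than poly(A) RNA selected. Many are near-identical copies, so reads may be split among them. Of 57, 51 were higher in control set 2 than in set 1 at an unadjusted p under 0.05 (median log2 FC 0.63), against 17.2% of all genes. In treated B6 mice 41 were higher than in set 1 (median 0.54), against 29.5% of all genes. Their level was -0.15, -0.40 and -0.52 in control set 1, -0.24, 0.41 and 0.51 in control set 2, -0.44, 0.40 and 0.34 in treated B6 mice, 0.12, 0.15 and 0.07 in untreated mutants and 0.37, -0.26 and -0.35 in treated mutants. As in the mitotic genes, treated B6 mouse 1 lay near the bottom, and the untreated mutants were the narrowest group.

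For the difference between responses, 30 of the 57 histone genes were lower in the Irf1-/- response and none higher (median -0.67), against 16.9% of all genes, led by Hist1h4c (-0.70 ± 0.20, adjusted p = 0.119). Measured against control set 2, the median was -0.03 for the difference and -0.09 for the B6 response, where 2 were higher and 1 lower. After the GC correction 13 of 57 were higher in the B6 response (median 0.36), where 2260 of 12542 genes passed in either direction. In the difference 12 were then lower, against 10.7% of all genes.

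Of 24 G1 cyclins, kinases and transcription factors, E2f2, an activating E2F factor, averaged 10.9 ± 3.27 CPM in control set 1, 18.3 ± 4.61 in set 2 and 26.2 ± 6.77 in treated B6 mice. Its log2 FC in the B6 response was 1.27 ± 0.24 over set 1 (adjusted p = 0.0220) and 0.53 ± 0.21 over set 2 (adjusted p = 0.117), and 1.12 ± 0.24 after the GC correction (adjusted p = 0.0686). It averaged 13.7 ± 1.34 CPM in untreated and 13.5 ± 3.50 in treated mutants, and the difference between responses was -1.28 ± 0.33 (adjusted p = 0.102). E2f2 and E2f1 thus had different patterns over the same libraries. Cdc25a, a phosphatase that activates Cdk2, had a B6 response of 0.36 ± 0.08 (adjusted p = 0.0330). Rb1, the retinoblastoma protein that restrains E2F, was at 0.57 ± 0.12 between treated genotypes (adjusted p = 0.0466), and at 0.33 ± 0.11 after the GC correction (adjusted p = 0.299).

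Of 12 brakes on the cycle, 4 were higher and 1 lower in the B6 response at an unadjusted p under 0.05, against 29.5% of all genes. Over control set 2, 1 was higher and none lower, against 33.5%. After the GC correction 2 were higher and 2 lower, where 2260 of 12542 genes passed, and the median was 0.13 in place of 0.14. The smallest p over set 1 were those of the kinase inhibitors Cdkn2d (0.62 ± 0.17, adjusted p = 0.0554) and Cdkn1c (0.80 ± 0.23, adjusted p = 0.0625). For the difference between responses these had -0.73 ± 0.26 (adjusted p = 0.196) and -0.96 ± 0.31 (adjusted p = 0.154). Btg1, an antiproliferative gene, averaged 307 ± 17.8 CPM in control set 1 and 228 ± 10.2 in set 2 (log2 FC -0.43 ± 0.08, adjusted p = 0.0451), opposite in sign to the mitotic genes. Usf1 and Dact2, which the study named as negative regulators of the cell cycle, were at -0.61 ± 0.09 and -0.70 ± 0.12 in treated mutants over treated B6 mice (adjusted p = 0.0147 and 0.0302), and at -0.47 and -0.52 after the GC correction (adjusted p = 0.0611 and 0.106). By quantitative PCR the study found both raised at D26 in B6 but not in mutant colons. In the B6 response they were at 0.30 ± 0.09 and 0.39 ± 0.13 (adjusted p = 0.0721 and 0.0855). Their B6 median was 0.40 over control set 2 and 0.17 after the GC correction. In the Irf1-/- response they were at -0.10 ± 0.08 and -0.09 ± 0.12. Untreated mutants against set 2 had -0.23 ± 0.06 for Usf1 (adjusted p = 0.144) and -0.07 ± 0.11 for Dact2.

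Markers of the cells that divide or that hold dividing cells were read beside these results. Between the control sets, 17.2% of all genes passed an unadjusted p under 0.05 in either direction. There 1 of 10 crypt stem and progenitor markers was higher in set 2 and none lower (median log2 FC 0.10). None of 10 epithelial markers was higher and 1 was lower (median 0.00). Goblet cell markers had 4 of 6 higher (median 0.51), and 9 leukocyte markers had none higher and 4 lower (median -0.52). Of 10 B cell and germinal centre markers 6 were measured. Their mean level was 0.88, 0.19 and -1.06 in control set 1 and -0.72, 0.00 and -1.71 in control set 2. The mitotic level of the same mice was 0.03, -0.52 and -0.29, then 0.00, 0.33 and 0.44. Mouse 1 of set 1 was thus the highest of its set in both levels. Mouse 3 of set 2 was highest in the mitotic and lowest in the B cell level. Whether a shift in cell types has a part in the difference between the sets was not tested.

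In the B6 response over control set 1, 6 of 6 goblet cell markers were higher (median 1.04, with no GC correction). Their mean level was -0.41, -0.89 and -0.39 in control set 1 and -0.14, -0.30 and 0.08 in control set 2. In treated B6 mice it was 0.10, 0.53 and 0.45. Of leukocyte markers 3 of 10 were higher, of epithelial markers 3 of 10, and of crypt markers 3 of 11 with 1 lower, shares near the 29.5% of all genes that passed. In the Irf1-/- response 10 of 10 leukocyte markers were higher (median 0.55), against 18.6% of all genes, while the mitotic and replication medians were 0.04 and -0.01. Xist, the RNA of the inactive X chromosome, was under 100 CPM in treated B6 mice 1 and 2 and treated mutant 1 and at 321 to 3729 CPM in the other 12. The first 2 of these lay at opposite ends of the replication and mitotic levels of their group. The third, treated mutant 1, had the highest replication and mitotic levels of its group (0.16 and 0.44). No untreated library was under 100 CPM. The part of what Xist tracks in the treated groups was not tested.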

How the data were processed

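Libraries were made with a stranded kit from rRNA-depleted total RNA of distal colon. The submitters' processing notes name TopHat2 2.0.9, Bowtie 1.0.0, featureCounts, edgeR and the build mm9. The authors deposited 3 tables with raw read counts per gene, already limited to genes with at least 5 CPM in at least 3 libraries, so a gene absent from a table is only known to have missed that filter. The tables also held 36 columns of CPM and log CPM and the authors' own fold changes, p-values and dispersions, none of which was used.

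The counts were tested with edgeR 4.0.16 (TMM scaling, quasi-likelihood F test, Benjamini-Hochberg adjustment over all genes of the comparison) in R 4.3.3. A gene was called at a fold change of at least 1.5 and an adjusted p under 0.01. The difference between responses was an interaction term. Log2 CPM levels used a prior count of 2. Comparisons across tables used the genes that both tables held. The untreated Irf1-/- counts were identical in the tables that shared them.

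Members and gene lists were chosen with earlier results of these data known. Named were a fixed set for each role and, in each comparison, the 3 replication and 3 mitotic genes with the smallest p, with the 2 smallest of each further list. Alternatives were RLE size factors, DESeq2 1.42.0, the exact test of edgeR, limma 3.58.1 voom, a block for replicate number, a filter of 10 CPM, other control sets, each library left out, and a GC correction (lowess, span 0.3). GC content and length came from GENCODE M21, matched for 12788 of 12897 genes and for 44 members. On simulated counts with 200 genes changed by folds of 2.5 and 0.4, the Irf1-/- response recovered 197 with 4 false calls over 12692 genes, and the difference between responses 173 with 1 false call over 12483 genes. Promoters were from RefSeq (GRCm38.p6), and no coordinates of mm9 were used.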

Additional observations from a re-analysis of the deposited data

How the results depend on the processing

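No listed gene was called in any comparison when any 1 library was left out. By DESeq2 and by the exact test 1 gene (E2f1) was called in the Irf1-/- response, and between the control sets 9 and 7 were, with 1 at an adjusted p under 0.05 and no fold limit. The cause was not tested. With 3 mice a group and this spread between mice, small shifts could be missed.

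The choice of control set turned most directions. For untreated mutants, control set 1 gave 20 genes at an unadjusted p under 0.05, against 20.4% of all genes. The medians were 0.07 (replication) and 0.34 (mitotic). Both sets together gave 0 genes, where 1043 of 12370 genes passed, and medians of -0.10 and 0.08. Against set 1, Top2a was at 0.20, Foxm1 at 0.22 and Nusap1 at 0.33. For the B6 response, control set 2 gave 10 genes, against 33.5% of all genes. The medians were -0.15 and -0.37, with Cdc45 at -0.11 and Rrm2 at -0.23. For the difference between responses control set 2 gave medians of 0.22 and 0.41. There E2f1 was at 0.14, Prc1 at 0.15, Birc5 at 0.13 and Aurkb at 0.02. Both sets together gave 0 genes for the difference.

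Replicate numbers did not pair the samples (mean correlation of same-numbered deviations -0.119 to 0.0814). With the replicate block, 0 listed genes had an unadjusted p under 0.05 in the B6 response in place of 4, where 3167 of 12643 genes passed. With the block and the GC correction 2 did, where 2015 of 12542 genes passed. That setting gave 1 in the difference between responses and 0 between treated genotypes. The GC correction alone left 1 between treated genotypes, against 12.1% of all genes. DESeq2 gave 8 in the B6 response, where 3473 of 12643 genes passed. A single fit of all 15 libraries gave 2 between untreated genotypes, where 892 of 12370 genes passed. In the Irf1-/- response it gave 3, where 1995 of 12370 genes passed.

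Leaving out 1 library moved the count at an unadjusted p under 0.05 between 4 and 28 for untreated genotypes. The 28 came without mouse 1 of control set 2, against 15.1% of all genes. For the B6 response the count moved between 1 and 25. The 25 came without treated B6 mouse 1, against 31.8% of all genes. The 1 came without mouse 1 of control set 1, where 2924 of 12643 genes passed. The count moved between 3 and 7 for the Irf1-/- response and 0 and 11 for the difference. For treated genotypes it moved between 1 and 8, and for the control sets between 26 and 37. With all libraries, 18.6%, 16.9%, 22.0% and 17.2% of all genes passed in these comparisons, in the same order. The mitotic median moved from -0.21 to 0.22 in the Irf1-/- response, from 0.05 to 0.42 in the B6 response, from -0.39 to 0.02 for the difference and from -0.03 to 0.43 between treated genotypes. The replication median moved from -0.35 to -0.12 for untreated genotypes and from 0.23 to 0.49 for the control sets, where mouse 2 of set 2 gave -0.12 and 0.23. Of the values of named genes under the alternatives, 586 kept their direction and side of the threshold, 9 reversed and 8 passed it where they had not. Named genes were chosen in part by small p in the main fits, and most alternatives reused the same libraries. Kept directions were thus partly fixed beforehand, and this count does not measure robustness. Signs that turned with the other control set are given above.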
